A study of Mus musculus with 24 samples.

Results

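Hox genes encode homeodomain transcription factors that lie in 4 clusters and give cells their position along the body from head to tail. All 39 mouse Hox genes of clusters A to D, found by their symbols, were measured here among 21368 named genes on 24 Agilent arrays. Cluster A (chromosome 6) holds 11 of them, cluster B (chromosome 11) 10, cluster C (chromosome 15) 9 and cluster D (chromosome 2) 9. Each gene was represented by its probe of highest mean signal over the 24 arrays, and its level is the log2 processed signal minus the 75th percentile of that array. A probe was taken as measured on an array where the scanner software called it well above background. Since probes differ in brightness, levels were compared between arrays for a given gene and never between genes.

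Within a cluster, genes are numbered by paralog group from 1 to 13. In the embryo, genes of low number are switched on first and reach furthest toward the head, and genes of high number act in the lower trunk, the tail and the far limb. Forebrain and midbrain form without Hox expression, hindbrain and spinal cord express Hox genes in nested domains, and limb tissue uses the 5′ genes of clusters A and D. In adult organs, fibroblasts and other stromal cells are known to keep part of this positional pattern.

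The arrays come from liver, brain, heart and muscle of 6 female mice. Mice A, B and C were homozygous for the I312R knockin (KI) of Rap1 (gene symbol Terf2ip), a telomere-associated protein that this mutation keeps from binding TRF2. Mice D, E and F were WT littermates. The knockin was made with CRISPR/Cas9 and backcrossed to C57BL/6N, it is present in every cell of the body, and no further treatment was given. Mice were 15 months of age, except for C and F at 14 months. Each mouse gave all 4 tissues, which makes 8 groups of 3 arrays. The labels do not name the region of the brain or the muscle that was taken. Brain and liver were homogenized with glass beads and purified with a standard column kit, heart and muscle with zirconia beads and a fibrous-tissue kit, so that tissue and extraction cannot be told apart between these pairs.

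Each tissue carried its own markers. The mean level of 5 hepatocyte genes was 8.08 to 8.72 in liver, that of 5 neuronal genes 5.02 to 5.30 in brain, that of 5 cardiomyocyte genes 5.63 to 8.34 in heart and that of 5 skeletal myofibre genes 9.13 to 9.62 in muscle. A few arrays also carried transcripts of another tissue. The 5 hepatocyte genes averaged 4.19 in brain C, with 5 of 5 well above background, against -3.70 to -1.32 in the other brains. The 5 myofibre genes averaged 1.12 in liver C, with 5 of 5 well above background, against -6.38 to -5.25 in the other livers. In muscle B, 8 genes of mammary epithelium averaged -1.32 against -4.91 to -4.62 in the other muscles. The results below are given with and without these 3 arrays where they matter. In bulk tissue, fewer cells of a type and less RNA per cell cannot be told apart.

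Promoters of 4 cluster D genes are shown because the muscle levels of 3 of them are described together further on. Hoxd8, Hoxd9 and Hoxd10 were measured in muscle and moved together between mice there, while Hoxd12, on their 5′ side, was not well above background on any of the 24 arrays. The 250 bases before each start site are given below from the RefSeq table of GRCm38.p6, + strand, with every CG dinucleotide in capitals. Their positions are chr2:74674763-74675012 for Hoxd12, chr2:74691641-74691890 for Hoxd10, chr2:74697513-74697762 for Hoxd9 and chr2:74704365-74704614 for Hoxd8.
Hoxd12: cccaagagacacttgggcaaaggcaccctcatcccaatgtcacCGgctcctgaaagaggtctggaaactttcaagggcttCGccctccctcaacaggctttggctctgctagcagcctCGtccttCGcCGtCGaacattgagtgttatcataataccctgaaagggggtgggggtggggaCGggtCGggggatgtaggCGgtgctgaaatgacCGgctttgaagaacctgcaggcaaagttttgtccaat
Hoxd10: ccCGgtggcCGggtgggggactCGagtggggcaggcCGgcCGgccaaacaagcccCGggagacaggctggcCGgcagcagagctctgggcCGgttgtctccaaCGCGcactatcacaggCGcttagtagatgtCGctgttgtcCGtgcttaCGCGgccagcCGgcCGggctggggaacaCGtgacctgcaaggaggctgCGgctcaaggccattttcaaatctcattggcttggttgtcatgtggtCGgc
Hoxd9: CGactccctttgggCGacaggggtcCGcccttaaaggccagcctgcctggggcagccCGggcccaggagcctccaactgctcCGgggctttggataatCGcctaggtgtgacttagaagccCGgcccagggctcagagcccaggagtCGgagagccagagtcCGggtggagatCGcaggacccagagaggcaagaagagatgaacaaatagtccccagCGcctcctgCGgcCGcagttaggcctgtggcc
Hoxd8: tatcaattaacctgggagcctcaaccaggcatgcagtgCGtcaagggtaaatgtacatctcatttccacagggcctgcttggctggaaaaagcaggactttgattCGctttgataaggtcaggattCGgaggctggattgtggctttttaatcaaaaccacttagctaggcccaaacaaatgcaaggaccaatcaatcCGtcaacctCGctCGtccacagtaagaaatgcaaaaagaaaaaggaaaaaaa
These windows hold 10, 20, 13 and 6 CG dinucleotides in that order, so Hoxd12 lies between its measured neighbours in CG count. CG dinucleotides are common in promoters of developmental genes, where Polycomb complexes bind.

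The table held 24 promoters of 22 Hox genes, each of 250 bases before and 50 bases after a start site, and none for the other 17 genes. All counts below were made in the 250 bases before the start site alone. The median number of CG dinucleotides was 12.5 in the Hox promoters and 6 over all 32841 promoters. The letters CCAAT, searched on both strands, were in 58.3% of the Hox promoters (14 of 24) and in 33.9% of all promoters. TATAAA was in 16.7% against 12.4%, and TGATTNAT, a sequence that Hox and Pbx proteins bind together, was in 8.33% against 2.83%, or 2 promoters. TGACAG, the core of Meis sites, was in 8.33% against 15.9%. TTTATGG, a Hox core preferred by high paralog numbers, was in 4.17% against 2.43%. These matches describe the letters in the window and are no evidence of binding.

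Hox genes were detected mainly in muscle. Of the 39 genes, 24 were well above background on all 6 muscle arrays, 11 on all 6 heart arrays, 7 on all 6 liver arrays and 2 on all 6 brain arrays. In that order of tissues the shares were 61.5%, 28.2%, 17.9% and 5.13%, where 60.9%, 67.4%, 62.5% and 73.0% of all named genes were well above background on all 6 arrays of the same tissues. Muscle was thus the only one of the 4 tissues in which the Hox share was as high as that of all genes. No Hox gene was well above background on all 24 arrays, as 11617 of all genes were. Hoxa3, Hoxa7, Hoxa9, Hoxb2, Hoxb3 and Hoxb4 were among those so on 23 arrays, and the array missing was a liver for Hoxa7 and Hoxb3 and a brain for Hoxa3, Hoxa9, Hoxb2 and Hoxb4.

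**Figure D1:**
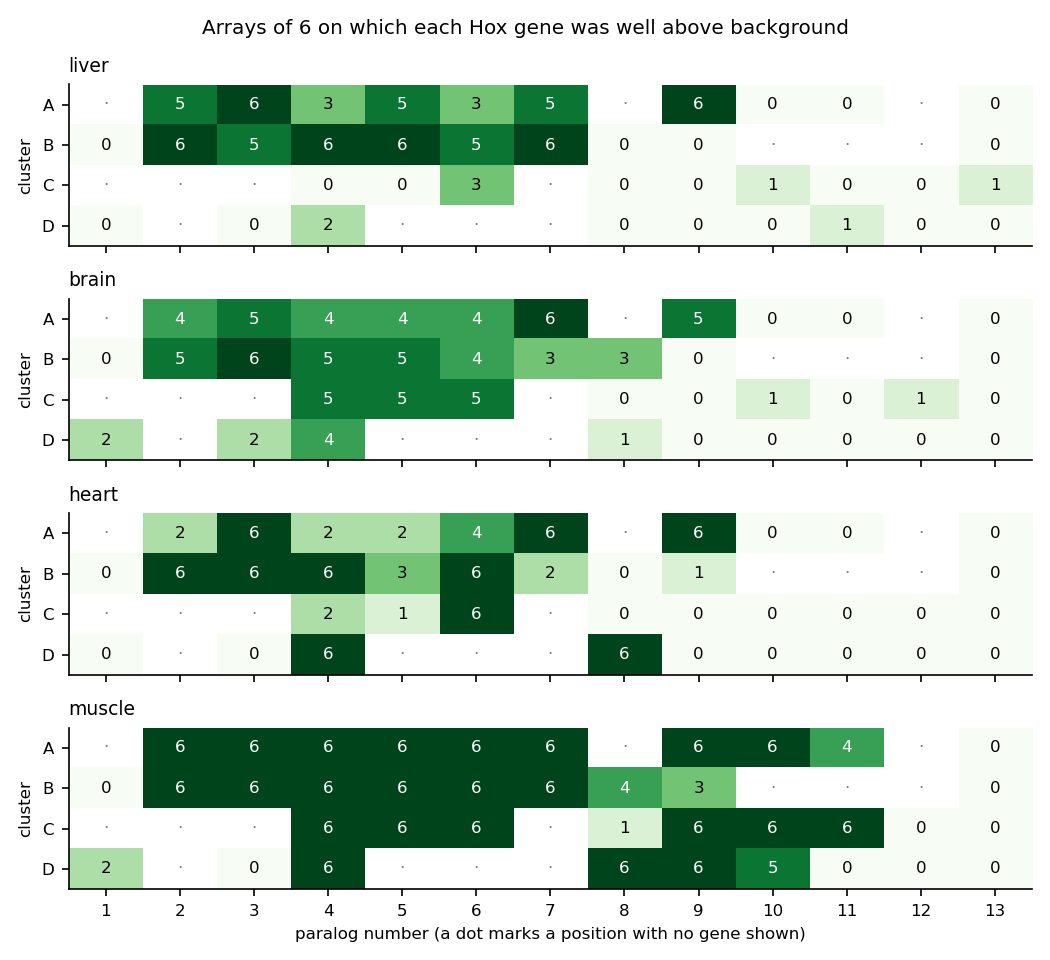
Number of arrays, of 6 per tissue, on which each of 38 Hox genes was well above background, with the cluster on the vertical axis and the paralog number on the horizontal axis. Muscle has 6 arrays at positions up to 10 in cluster A and, apart from Hoxc8 with 1, up to 11 in cluster C, and liver, brain and heart have few positions above 9 with any array.

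Detection ran along the clusters in a different way in each tissue. In liver, genes on all 6 arrays ran up to Hoxa9 in cluster A and from Hoxb2 to Hoxb7 in cluster B, and no gene of clusters C and D was among them. In heart they ran up to Hoxa9, from Hoxb2 to Hoxb6 and from Hoxd4 to Hoxd8, with Hoxc6 alone in cluster C. In muscle they ran up to Hoxa10, from Hoxb2 to Hoxb7, from Hoxc4 to Hoxc11 and from Hoxd4 to Hoxd9. In brain they were Hoxa7 and Hoxb3 alone, and without brain C 10 genes were on the other 5 brains. Of the 16 genes of paralog groups 9 to 13, muscle had 6 on all its arrays (Hoxa9, Hoxa10, Hoxc9, Hoxc10, Hoxc11 and Hoxd9), liver and heart had 1 each (Hoxa9) and brain had 0.

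A second probe was present for some of the genes and gave fewer arrays for Hoxa9 and Hoxb3. That of Hoxa9 was well above background on 3 liver, 2 brain, 1 heart and 6 muscle arrays, that of Hoxb3 on 3, 3, 4 and 4, and those of Hoxa13 and Hoxd11 on 1 muscle array each. The detection of Hoxa9 outside muscle thus depended on the probe.

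At the 5′ end of the clusters few probes gave signal. Hoxa13, Hoxb13 and Hoxd13, genes of the tail bud, the urogenital tract and the digits, were not well above background on any array by the probes chosen. Neither were Hoxd12 and, at the other end, Hoxb1, which specifies a segment of the embryonic hindbrain. Hoxc8 was well above background on 1 muscle array, Hoxc12 on 1 brain array, and Hoxc13 and Hoxd11 on 1 liver array each, the same liver (F) for both. Means over the 5 genes never measured give the floor of this scale, which was -8.08 for brain, -7.16 for heart, -6.98 for liver and -6.19 for muscle, so a value near these is no level.

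**Figure D2:**
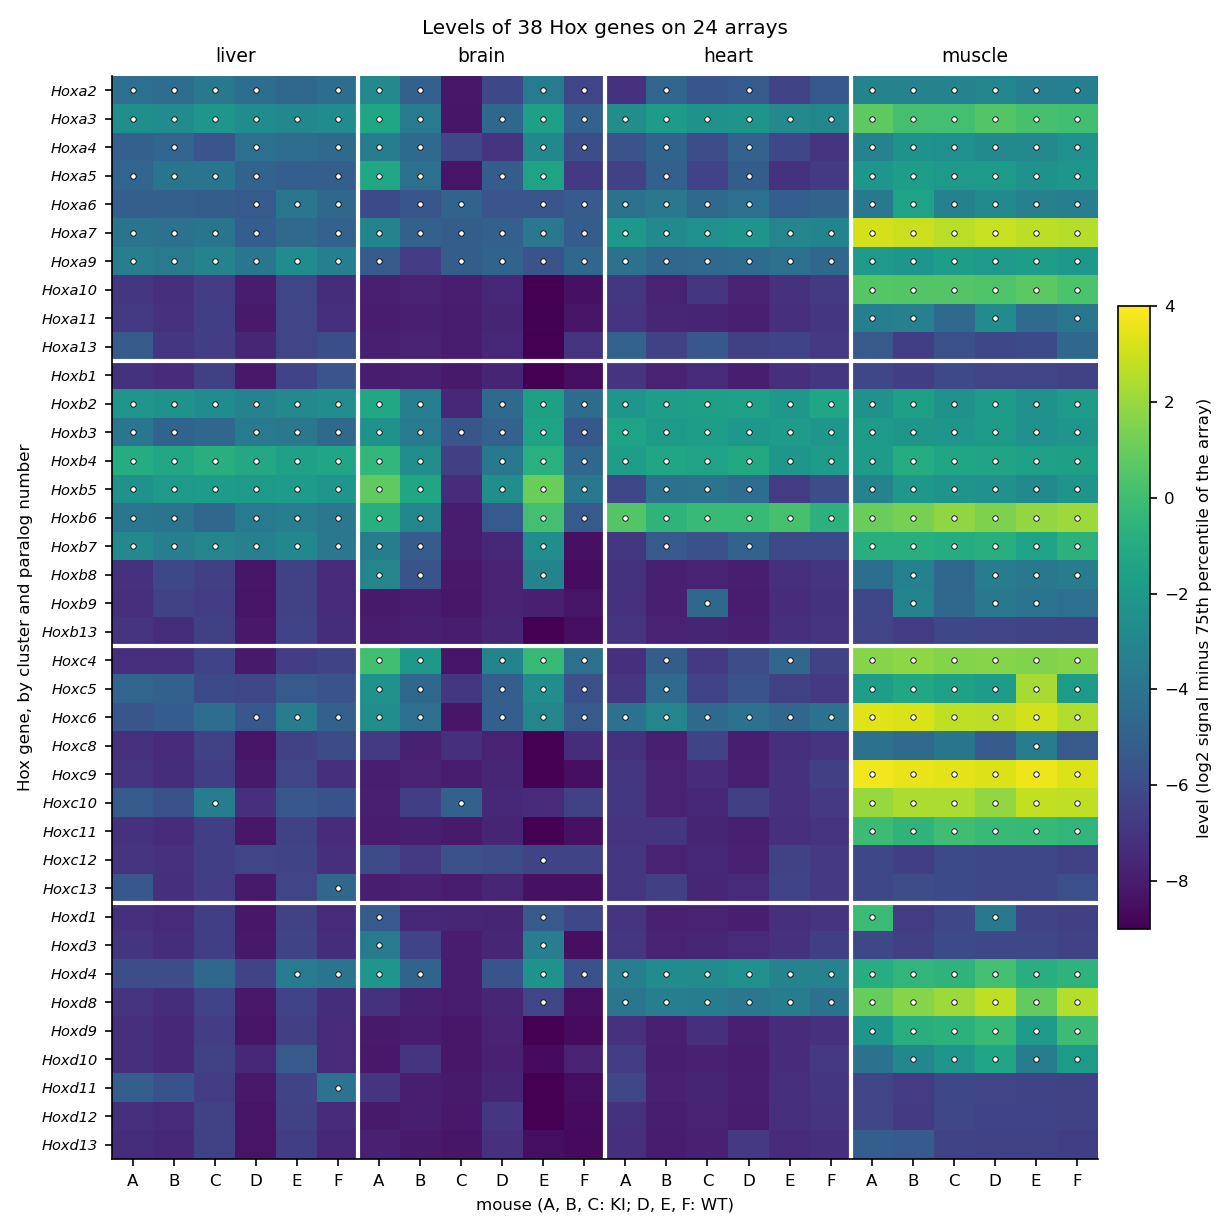
Level of 38 Hox genes (rows, by cluster and paralog number) on the 24 arrays (columns, by tissue and mouse), as log2 signal minus the 75th percentile of the array. The muscle columns hold the levels above 0 for Hoxc9, Hoxc10, Hoxc6 and Hoxa7, and the brain columns differ between mice.

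Muscle held Hox genes of the trunk and limbs at levels far above those of the other organs. Hoxc9, a gene of thoracic identity, had levels of 3.73, 3.55 and 3.47 in KI muscles A, B and C and 3.30, 3.68 and 3.33 in WT muscles D, E and F. On the 18 other arrays it never rose well above background, with means of -7.09 in liver, -8.11 in brain and -7.26 in heart. All 6 muscles thus lay above all other arrays. The muscle mean was at least 372-fold above that of liver, 774-fold above brain and 459-fold above heart. Hoxc9 entered the limma tests through muscle alone, with adjusted p = 6.78e-17, 3.27e-17 and 5.98e-16 in that order. These p-values belong to values near the floor in the other tissue, not to the bounds. Here and below, "at least" means that a dim value was replaced by the lowest level at which any probe of its array was well above background, if it lay under that level.

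Hoxc10, which acts in the lumbar region and hindlimb, had muscle levels of 2.02, 2.38 and 2.38 (KI) and 1.87, 2.80 and 2.73 (WT), at least 208-fold above heart. It entered that test through muscle alone, and the limma adjusted p of 1.62e-12 belongs to heart values near the floor, not to the bound. Hoxc10 was also well above background in liver C at -3.54 and in brain C at -5.01, where Hoxc9 was not. Liver C carried myofibre transcripts and brain C hepatocyte transcripts. The part of those transcripts in these levels was not tested. Hoxa10, a gene of the lumbar vertebrae and of the uterus, had muscle levels of 0.56, 0.54 and 0.52 (KI) and 0.43, 0.74 and 0.30 (WT), at least 46.7-fold above liver, 97.0-fold above brain and 57.6-fold above heart. Hoxc11, of the sacral group, had levels of -0.07, -0.53 and -0.00 (KI) and -0.21, -0.27 and -0.42 (WT), at least 27.5-fold, 57.1-fold and 33.9-fold above the same tissues. Neither gene was well above background on any array outside muscle, and both varied little between the 6 muscles.

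The genes of the middle of the clusters were measured in several organs and were still higher in muscle. Hoxa7 had muscle levels of 3.15, 2.95 and 2.66 (KI) and 2.90, 2.70 and 2.55 (WT), against a mean of -2.65 ± 0.45 (SD, n = 6) in heart. Hoxc6 had muscle levels of 3.38, 3.27 and 2.74 (KI) and 2.69, 3.10 and 2.50 (WT), against -4.12 ± 0.56 in heart. Both genes act at the level of the thorax and forelimb. Hoxc4 was at 1.66, 1.79 and 1.57 (KI) and 1.65, 1.51 and 1.64 (WT) in muscle, at least 102-fold above liver. Of the 39 genes, 17 were measured on all 6 muscles at levels above those of all 18 other arrays. The same held for 9.04% of all named genes, and for 0 Hox genes in liver, brain or heart, against 14.1%, 14.2% and 4.57% of all genes.

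Formal tests between muscle and the other tissues had the same 24 Hox genes, all of which entered through muscle, where they were well above background, so that the filter itself favours this direction. Liver against muscle gave 20 genes lower in liver and 0 higher, where 44.0% of all genes tested were lower in liver, 40.1% higher and 84.2% passed in all. Brain against muscle gave 23 lower in brain and 0 higher, where 46.2% of all genes were lower, 37.8% higher and 84.0% passed. Heart against muscle gave 20 lower in heart and 0 higher, where 35.6% were lower, 33.2% higher and 68.8% passed. The median difference of the 24 genes was -3.73, -4.32 and -3.58, beside -0.09, -0.20 and -0.01 over all genes tested. With the genes dim on all arrays of the other tissue set to their bounds, it was -3.44, -4.32 and -3.58. The genes that did not pass were Hoxa2, Hoxb2, Hoxb4 and Hoxb5 against liver, and Hoxb5 against brain. Against heart they were Hoxb2, Hoxb3, Hoxb4 and Hoxb6. The fit uses 1 spread per gene over all 4 tissues, so a wide spread in brain enters each of these tests. Hoxa2 had a brain SD of 1.92, and its livers (-4.63 to -3.82) all lay below its muscles (-3.42 to -3.06). Hoxb6 had a brain SD of 3.06, and its muscles all lay above its hearts.

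Where a gene was measured on all arrays of both tissues the difference is a value, as for Hoxc6 at -7.07 for heart minus muscle. For Hoxc9, Hoxa10, Hoxc11 and Hoxd9 the other 3 tissues allow bounds alone. Hoxd8 was at least 115-fold higher in muscle than in liver, and Hoxd9 at least 16.8-fold over liver, 34.9-fold over brain and 20.7-fold over heart. Slide 3 held all 6 muscles and hearts C and F, and within it Hoxd8, measured on all of these arrays, differed by -5.61 for heart minus muscle. Muscle shared no slide with liver or brain, so slide and tissue cannot be told apart there.

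Among the muscles, the cluster D neighbours Hoxd8, Hoxd9 and Hoxd10 varied together. Of the same cluster, Hoxd4 ranged from -0.90 to 0.14, and Hoxd1, given further on, was highest in muscle A. Hoxd8, which acts along the trunk and in the limb, had levels of 0.99, 1.64 and 2.10 (KI) and 2.75, 0.85 and 2.54 (WT). Hoxd9 had levels of -2.16, -0.77 and -0.65 (KI) and -0.17, -1.93 and -0.07 (WT). Hoxd10 had levels of -4.17, which was not well above background, -2.93 and -2.21 (KI) and -1.37, -3.55 and -1.93 (WT). For all 3 genes muscles A and E were the lowest, muscles D and F the highest, and B and C lay between them. The genotypes overlapped, since each had a muscle at the low end.

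Other values shared the low end of that order. Hoxd3os1, an antisense RNA of cluster D, had levels of -2.58, -1.30 and -1.07 (KI) and -0.22, -2.80 and -0.46 (WT). Meis2, a homeodomain cofactor that binds DNA with Hox proteins, had levels of -2.49, -0.10 and -0.90 (KI) and 0.71, -2.47 and -0.29 (WT). Again A and E were lowest and D highest. A mean over 8 fibroblast genes was 3.22, 4.13 and 3.53 (KI) and 4.71, 2.42 and 3.59 (WT), also lowest in A and E and highest in D, and all 8 genes were well above background in each muscle. The part of fibroblast content in the Hoxd levels was not tested. The cluster A and C genes Hoxa10, Hoxc9, Hoxc10 and Hoxc11 did not share this order.

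**Figure D3:**
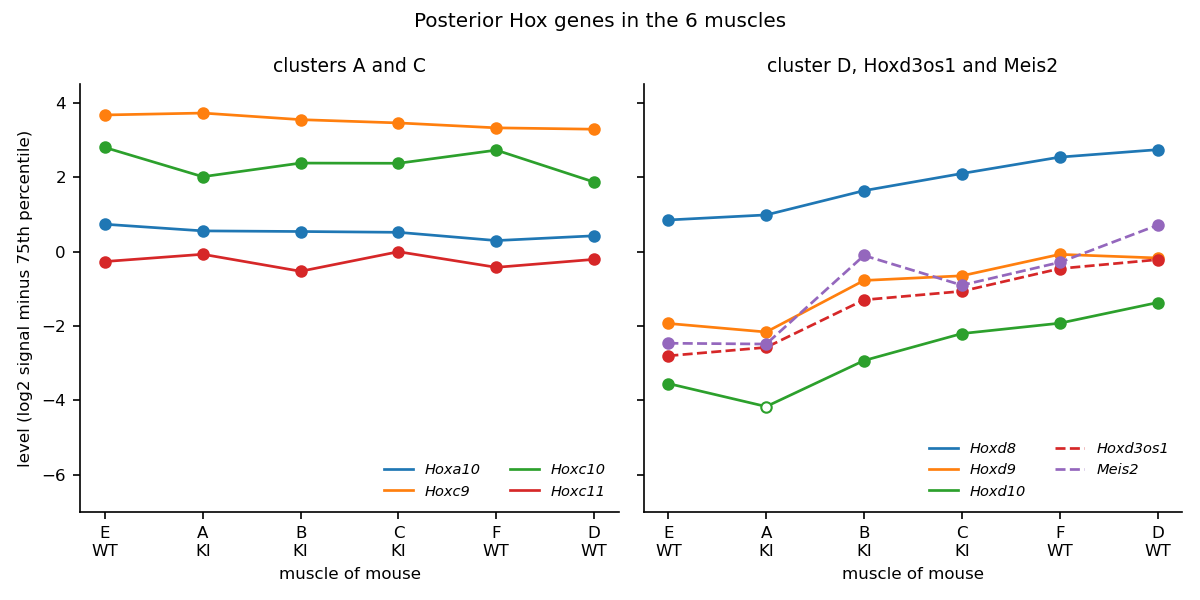
Levels of posterior Hox genes in the 6 muscles, with genes of clusters A and C on the left and genes of cluster D, Hoxd3os1 and Meis2 on the right. Mice are set in the order of the Hoxd8 level, a display order only. Hoxd8, Hoxd9 and Hoxd10 are lower at the left of the panel than at the right, while Hoxc9 stays between 3.30 and 3.73.

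Single muscles stood apart for a few genes. Hoxd1, a gene of pain-sensing neurons in the mouse, was at -0.13 in muscle A and -3.80 in muscle D, and not well above background in the other 4 muscles, at -6.73 to -6.25. Hoxc5 was at 2.29 in muscle E and at -1.91 to -1.22 in the other 5. Hoxa6 was at -1.44 in muscle B and -3.76 to -2.81 elsewhere, and muscle B is the array with mammary transcripts. The part of these in Hoxa6 was not tested. Hoxa11 was measured on 4 of 6 muscles, with levels of -3.40 (A), -3.34 (B), -2.73 (D) and -3.91 (F), and Hoxb8 and Hoxb9 on 4 and 3.

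Limb genes that lie outside the clusters were also measured, since the labels do not give the site of the muscle. Tbx4 and Pitx1, which mark the hindlimb in the embryo, were well above background on all 6 muscles. Tbx4 had a muscle mean of -1.23 ± 0.33 (SD, n = 6). Pitx1 ranged from -2.61 to 0.44 and was measured on no liver or heart array. Tbx5, a gene of the forelimb and the heart, had a mean of 3.34 in heart and -3.22 in muscle, where it was measured on 5 of 6 arrays. Of the 8 limb-level genes, 3 of 5 tested were lower and 1 higher in liver than in muscle, where 44.0% of all genes were lower and 40.1% higher. In brain 4 of 5 were lower and 1 higher (46.2% and 37.8% of all genes), and in heart 4 of 6 were lower and 2 higher (35.6% and 33.2%).

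Heart held fewer measured Hox genes than muscle, most of them in clusters A and B. Hoxb6 had heart levels of 0.51, -0.54 and -0.20 (KI) and -0.23, 0.21 and -0.63 (WT), above the liver mean of -3.91 ± 0.41 (SD, n = 6). Muscle was higher again, with a mean of 1.61 ± 0.40, and its lowest array (1.05) lay above the highest heart (0.51). This difference did not pass the test, whose spread for the gene also takes in that of brain (SD 3.06). Hoxd8 had heart levels of -3.92, -3.46 and -3.50 (KI) and -3.82, -3.48 and -4.11 (WT), at least 2.49-fold above liver, where no array measured it. Hoxb2, Hoxb3 and Hoxb4, genes of the embryonic hindbrain and neck, had heart means of -1.74 ± 0.31, -1.85 ± 0.25 and -1.61 ± 0.35.

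Against liver, heart was higher for 5 of 13 Hox genes tested and lower for 3, where 80.0% of all genes tested passed, 41.8% higher and 38.3% lower in heart. The 5 were Hoxb6 (liver minus heart -3.76), Hoxb3 (-2.37), Hoxd4 (-2.10), Hoxa7 (-1.78) and Hoxd8, which has the bound above. The 3 that were higher in liver were Hoxb5 (3.17), Hoxb7 (2.60) and Hoxa9 (1.06). The median over the 13 genes was -0.72, beside -0.07 over all genes. Of the 13 genes, 5 entered through both tissues, Hoxa9 among them, and 2 through liver alone, Hoxb5 and Hoxb7. The other 6 entered through heart alone, namely all 5 genes higher in heart and Hoxc6, which did not pass. For the 8 genes that entered through a single tissue the filter favours the direction found. Hoxb3 depended on its probe. The second probe had a mean of -4.70 in liver and -5.24 in heart, and with the mean of both probes the difference was -0.91 and did not pass. Liver and heart shared no slide. With slide as a term in the 24-array fit the 5 genes remained and the 3 that were higher in liver did not pass. That term compares slide 1 with slide 2 through brains A and D against the other brains alone. Hox levels differed widely between those mice, so it cannot tell slide from mouse.

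Hoxb5 and Hoxb7 also differed among hearts. Hoxb5 was well above background in hearts B, C and D at -4.08, -3.98 and -4.36, and not in A, E and F at -6.18, -6.75 and -5.88. Hoxb7 was measured in hearts B and D alone, at -5.36 and -4.87. The numbers of Hox genes well above background were 12, 19 and 14 in hearts A, B and C and 17, 12 and 11 in hearts D, E and F. Of all probes, 57.4%, 65.9% and 63.2% were well above background in hearts A, B and C. In hearts D, E and F the shares were 66.2%, 57.6% and 56.9%, so B, C and D were the highest in both measures. The part of this share in the Hox counts was not tested. A mean over 6 adipocyte genes was -0.64 in heart B, with 5 of 6 well above background, and -4.04 to -3.07 in the others, with 4 of 6 each. The part of fat in the count of heart B was not tested, and heart D had the next highest count with an adipocyte mean of -3.77.

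Liver had 7 Hox genes on all 6 arrays, among them Hoxa3, Hoxb2, Hoxb4, Hoxb5, Hoxb7 and Hoxa9. Hoxb4, which is known from blood stem cells, had liver levels of -0.97, -1.23 and -0.83 (KI) and -1.13, -1.56 and -1.33 (WT). Hoxb5 had levels of -2.37, -2.02 and -1.88 (KI) and -1.91, -1.87 and -2.15 (WT), which overlapped those of muscle (-3.17 to -2.09). Hoxa9, a gene of blood progenitors, had a liver mean of -3.38 ± 0.41 (SD, n = 6). In liver, 12 further Hox genes were measured on some arrays and 20 on none, among them Hoxc4, Hoxc5, Hoxc8, Hoxc9 and Hoxc11. Livers A, B and C had 12, 13 and 11 Hox genes well above background, and livers D, E and F had 15, 12 and 18. Of all probes, 56.9%, 55.3% and 49.9% were well above background in livers A, B and C, and 61.2%, 49.4% and 62.1% in livers D, E and F.

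Compared to brain, liver was higher for 4 of 9 Hox genes tested and lower for 0, where 85.4% of all genes tested passed, 45.6% higher and 39.8% lower. Of the 9, 7 entered through liver alone, the 4 included, and 2 through brain alone, so the filter favours this direction. Hoxa9 differed by 2.01 ± 0.25 (SE, limma, adjusted p = 4.46e-07), Hoxb7 by 2.62 ± 0.78 (adjusted p = 0.00433) and Hoxb4 by 1.94 ± 0.73 (adjusted p = 0.0198). On slide 1, which held the 6 livers and brains A and D, they differed by 1.71, 2.26 and 0.91. The median over the 9 genes was 1.14, beside 0.15 over all genes. Without brain C, 12 Hox genes were tested, of which 3 were higher and 1 lower in liver. With slide as a term, 1 gene (Hoxa9) passed. These tests rest on a brain group whose spread is described next.

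Brain differed from the other tissues in that the same Hox genes were high in some mice and near the floor in others. Hoxb5, a gene of the caudal hindbrain and spinal cord, had brain levels of 0.82, -1.37 and -7.33 in KI mice A, B and C and -2.59, 1.10 and -3.79 in WT mice D, E and F. All but brain C were well above background, and the other 5 still ran from 1.10 down to -3.79. The highest brain was WT and the next was KI.

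Other genes repeated the order. Hoxc4 had levels of 0.05, -2.05 and -8.25 (KI) and -3.15, -0.21 and -4.20 (WT). Hoxb6 had levels of -0.81, -3.03 and -7.99 (KI) and -5.32, 0.10 and -5.33 (WT), and Hoxb4 -0.37, -2.59 and -6.55 (KI) and -3.80, -0.75 and -4.64 (WT). Brains A and E were the highest pair, B came next, and C was lowest for each of these genes. Hoxa5, a gene of brainstem breathing circuits, had levels of -1.26, -4.21 and -8.25 (KI) and -5.15, -1.50 and -6.80 (WT). Hoxd3 was well above background in brains A (-3.60) and E (-3.44) and on no other array of the 24, and Hoxb8 in brains A (-3.10), B (-5.62) and E (-3.17).

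Over the 19 Hox genes measured on 3 or more of the 6 brains, A and E were the highest pair for 17 (all but Hoxa6 and Hoxa9), B was the third for 18, and C was the lowest for 14. The median level of these 19 genes was -2.35 in A, -4.42 in B, -7.50 in C, -5.05 in D, -2.64 in E and -5.30 in F. The number of Hox genes well above background was 20, 18 and 5 (KI) and 12, 23 and 16 (WT). With both genotypes at the high and at the low end, the order did not separate them. The genes share a library and a position in 4 clusters, so this is a single ordering seen through many genes and not many observations.

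**Figure D4:**
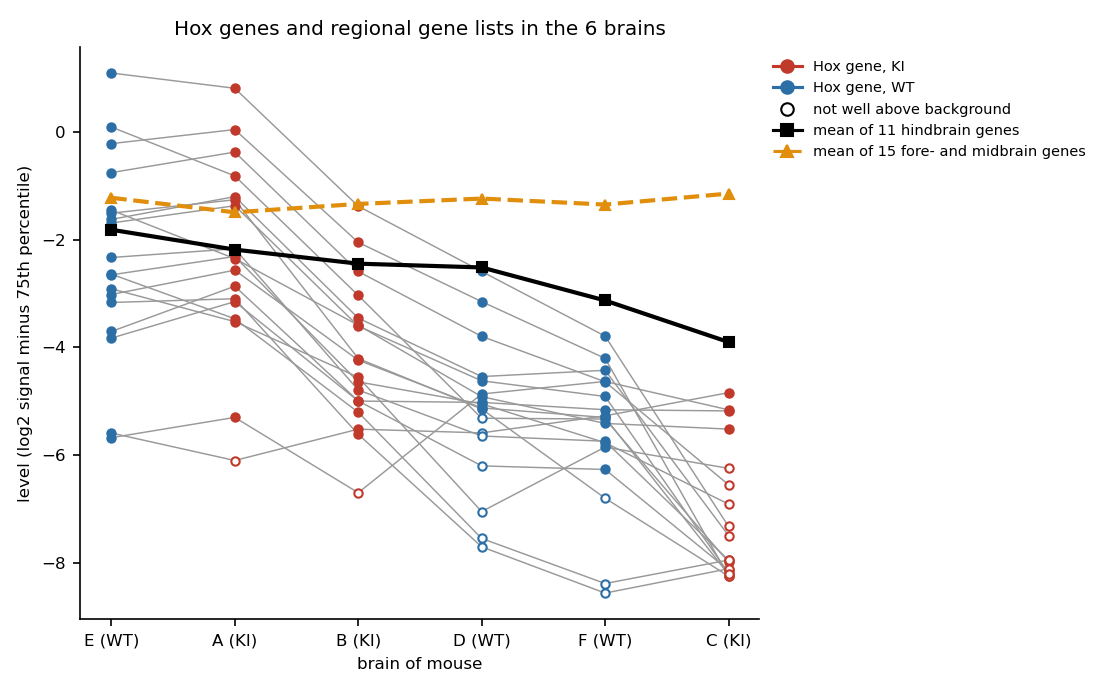
Levels of Hox genes in the 6 brains, with means of a hindbrain and spinal cord list and of a forebrain and midbrain list. Mice are set in the order of the hindbrain list, a display order only. The Hox lines fall by several log2 units from brains E and A to brain C, while the forebrain and midbrain mean stays between -1.49 and -1.14.

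The spread of Hox levels in brain was large against that of other genes. The 19 genes had a median SD over the 6 brains of 2.22, against 0.21 over all genes measured on 3 or more brains. Among genes measured on 3 to 5 brains only, the median was 2.29 for 17 Hox genes and 0.58 for all 1031 genes. In the other tissues the Hox medians were closer to those of all genes, at 0.41 against 0.25 in liver, 0.44 against 0.22 in heart and 0.35 against 0.27 in muscle.

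Regional genes of the brain give values beside this order. A mean over 11 hindbrain and spinal cord genes, leaving out Hoxb1, was -2.18, -2.44 and -3.90 (KI) and -2.51, -1.81 and -3.13 (WT), highest in E and A and lowest in C. Hoxaas2, an antisense RNA of cluster A, had levels of -2.79, -4.73 and -8.22 (KI) and -5.84, -3.06 and -5.33 (WT). Of the hindbrain list, 7 of 11 genes were well above background in brain C and 9 or 10 of 11 in each other brain.

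Genes of the front of the brain did not follow it. A mean over 15 forebrain and midbrain genes was -1.49, -1.33 and -1.14 (KI) and -1.23, -1.22 and -1.34 (WT). The part that the amount of brainstem or spinal cord in each sample has in the Hox levels was not tested, and the labels do not say which parts of the brain were taken.

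Compared to heart, brain was lower for 8 of 11 Hox genes tested and higher for 0, where 44.6% of all genes were lower in brain, 36.4% higher and 81.1% passed. The 3 of largest difference were Hoxd8 (-3.83, with 1 of 6 brains measured), Hoxb6 (-3.58, with 4) and Hoxb2 (-2.05, with 5). On slide 2, with 4 brains and 4 hearts, they differed by -3.97, -4.05 and -2.38. The median of the 11 genes was -1.82, beside -0.16 over all genes. All 11 genes had entered through heart, and without brain C the count became 6 lower and 3 higher of 14 tested. A mean over brains of such unequal level describes no single brain.

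Partners of Hox proteins were measured more widely than the Hox genes. Of 9 TALE homeodomain cofactors (the Pbx, Meis and Pknox genes, which bind DNA beside Hox proteins), 8 or 9 were tested between each pair of tissues. In muscle compared with liver, 3 were higher and 1 lower with a median (liver minus muscle) of 0.06. Compared with brain, 3 were higher and 4 lower in muscle, and compared with heart, 2 were higher and 4 lower. Of all genes tested, 44.0%, 46.2% and 35.6% were higher in muscle in these comparisons and 40.1%, 37.8% and 33.2% lower. Pknox2 was the cofactor of largest difference between liver and muscle, at -6.07 ± 0.17 (SE, limma, adjusted p = 1.73e-16). Meis1 was lower in liver than in heart, at -2.86 ± 0.18 for liver minus heart (adjusted p = 1.91e-11).

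Antisense and other noncoding RNAs of the clusters had 7 of 19 listed names on the array. In muscle, 3 of 3 tested were higher than in each of liver, brain and heart, where 44.0%, 46.2% and 35.6% of all genes were higher in muscle. Hoxa11os and Haglr were well above background on all 24 arrays. Hoxa11os differed by -2.42 from liver, -2.53 from brain and -1.51 from heart (other tissue minus muscle), and Haglr by -0.43, -0.53 and -0.48. Hoxd3os1 entered through muscle alone and was not measured elsewhere. Overlapping transcripts of the clusters were told apart here only by their probes. Of the ParaHox genes and cluster neighbours (8 named), at most 1 was tested in each comparison between liver, brain and heart, and Evx1, next to Hoxa13, was well above background in 5 of 6 brains.

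Polycomb and Trithorax genes, which keep Hox genes silent or active, were measured for 24 of 25 names. Compared with muscle, 12 of 23 were lower and 6 higher in liver, 12 of 24 were lower and 7 higher in brain, and 11 of 23 were lower and 5 higher in heart. Median differences were -0.81, -0.30 and -0.14, far smaller than those of the Hox genes. Of all genes tested, 44.0%, 46.2% and 35.6% were lower than muscle and 40.1%, 37.8% and 33.2% higher.

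The comparison of the study's design, Rap1 KI against WT, gave no Hox gene past the threshold in any tissue. The Hox genes tested were 14 for liver, 11 for brain, 12 for heart and 26 for muscle, and 0 passed an adjusted p of 0.05 by limma. No gene of any kind passed, a background of 0% in each tissue. The per-mouse mean over tissues (26 Hox genes) and the test of a difference between tissues (26 Hox genes) also gave 0. At an unadjusted p under 0.05, 3 Hox genes in liver were higher in KI, where 7.92% of all genes were higher, 3.92% lower and 11.8% passed in all. No Hox gene passed it in brain (0.790% of all genes), heart (1.63%), muscle (0.866%) or the mean over tissues (3.46%). The test of a difference between tissues gave 0 Hox genes, where 1.91% of all genes passed.

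Terf2ip itself was well above background on all 24 arrays. KI livers had levels of 0.14 to 0.70 and WT livers of 0.49 to 0.95. The ranges were 0.85 to 1.25 and 1.02 to 1.47 for brain, 0.15 to 0.57 and 0.46 to 0.65 for heart, and 0.75 to 1.04 and 0.88 to 0.99 for muscle, each with KI before WT. The genotypes overlapped in each tissue, and since the allele is a point mutation, this level does not check the genotype.

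The liver genes of smallest p were 3 that were higher in KI. Hoxa7 had levels of -4.01, -4.12 and -3.92 in KI and -5.13, -4.51 and -4.90 in WT livers, a difference of 0.83 ± 0.18 (SE) with an adjusted p of 0.339. Hoxa5 had levels of -4.78, -3.97 and -3.95 (KI) and -4.81, -5.09 and -5.07 (WT), a difference of 0.76 ± 0.25 with an adjusted p of 0.396. Hoxb2 had levels of -2.20, -2.33 and -2.68 (KI) and -3.17, -2.90 and -2.61 (WT), a difference of 0.48 ± 0.20 with an adjusted p of 0.421. The groups did not overlap for Hoxa7 and Hoxa5, and overlapped for Hoxb2. Hoxa7 and Hoxa5 were each well above background on 3 KI and 2 WT livers. They entered the test through KI alone, so the filter favours this direction.

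Groups that did not overlap were found in liver alone. KI lay above WT for Hoxa3, Hoxa5 and Hoxa7, and 12.8% of all genes tested did so. KI lay below WT for Hoxb6, and 6.87% of all genes did so. Hoxa5 and Hoxa7 had entered through KI alone, and Hoxb6 through WT alone (2 KI and 3 WT livers), so the filter favours these directions. The other tissues had 0 such Hox genes, where in brain KI lay above WT for 1.21% of all genes and below it for 1.72%. Heart had 1.79% and 3.23% of all genes on these sides, muscle 2.22% and 1.39%. The median difference of the 14 Hox genes was 0.25, beside 0.05 over all genes, with 8 of 14 positive. An exact two-sided permutation test of 3 mice against 3 cannot go below p = 0.10, and was not run.

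**Figure D5:**
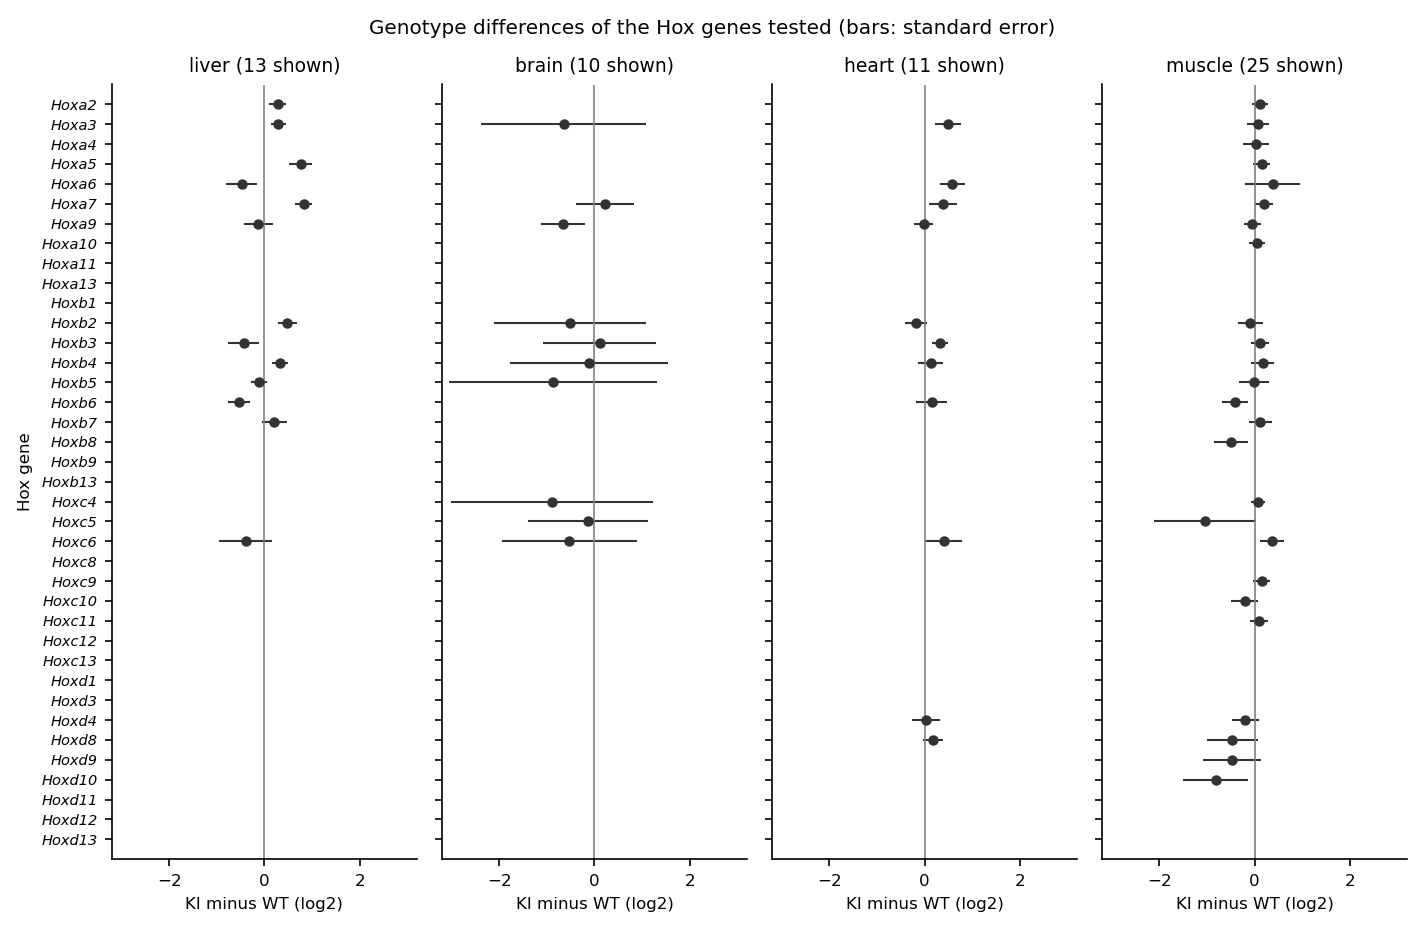
Difference KI minus WT (log2) of the Hox genes tested, by tissue, with bars for the standard error. Liver points lie within 1 of 0 with short bars, and brain points carry bars of up to more than 2.

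In brain, the 3 genes of smallest p were Hoxa9 (-0.66 ± 0.46, SE), Hoxc4 (-0.89 ± 2.12) and Hoxb5 (-0.87 ± 2.18), all with an adjusted p that rounds to 1. Each was well above background on 2 KI and 3 WT brains, so all 3 entered through WT alone and the filter favours this direction. Within slide 1, with 1 array of each genotype, Hoxb5 was 3.41 higher in KI, and within slide 2, with 2 of each, the difference was -3.01, which follows the order of mice given above. The standard error of over 2 means that a genotype difference of several fold in these genes was not detectable in brain with 3 mice each. In heart the 3 were Hoxa6 (0.58 ± 0.26), Hoxb3 (0.32 ± 0.16) and Hoxa3 (0.49 ± 0.27), with an adjusted p of 0.970, and each was higher in KI on both slides that held hearts. With the mean of its probes the difference of Hoxb3 was -0.0871. Hoxa6 was well above background on 3 KI hearts and 1 WT heart. It entered the test through KI alone, so the filter favours its direction. The median of the 12 heart genes was 0.25, beside -0.05 over all genes, and 10 of 12 were positive.

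In muscle, where most Hox genes were measured, the 26 genes had a median difference of 0.06, beside 0.02 over all genes, and 15 of 26 were positive. The 3 of smallest p were Hoxb6 (-0.41 ± 0.27), Hoxc6 (0.37 ± 0.25) and Hoxb8 (-0.49 ± 0.35), and none of the 26 genes had groups that did not overlap. Hoxb8 was well above background on 1 KI and 3 WT muscles. It entered through WT alone, so the filter favours its direction. For the per-mouse mean over tissues, the 3 were Hoxc11 (0.23 ± 0.09), Hoxd10 (-0.23 ± 0.13) and Hoxa7 (0.41 ± 0.23), with an adjusted p of 0.982. Hoxc11 and Hoxd10 were well above background on no liver, brain or heart array, so their means over tissues are largely values near the floor. In muscle alone Hoxc11 differed by 0.10 ± 0.19 and Hoxd10 by -0.82 ± 0.68. The test of a difference between tissues had its smallest unadjusted p at 0.192 (Hoxc10). No gene of the cofactor, noncoding, Polycomb and other regional lists passed the threshold between genotypes.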

How the data were processed

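Transcript levels were measured on 24 one-colour Agilent mouse arrays (Cy3), 1 for each of 4 tissues of 6 mice. The authors read spot intensities from the scans with Feature Extraction 12.0.3.1 (Agilent). The deposited processed signal, an intensity corrected for background by that program, was used. The authors' deposited score table (33912 features) matched z-scores of the log signal within each array, to within 0.005, and served as an alternative, as did normexp on the deposited spot and local background intensities (offset 50).

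Controls and outlier spots (121 to 347 of 62976 per array) were left out, and 0 spots were saturated. Spots of a probe were averaged (55681 probes), and log2 signal was taken relative to the array's 75th percentile, which was a signal of 312.4 to 2510.4. Probes well above background were 49.4% to 68.4% per array. Their number and 3 arrays per group limit the precision. Symbols came from RefSeq accessions (GRCm38.p6 table, names only, since the array's design used an older build) and covered 50.9% of the probes.

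Tests used limma 3.58.1 in R 4.3.3 (lmFit, eBayes, two-sided, Benjamini-Hochberg over all genes tested, threshold 0.05). Genotypes were compared in the 6 arrays of a tissue, over genes well above background on all 3 arrays of a genotype, and tissues in a 24-array fit, over genes well above background on all 6 arrays of a tissue. Named between tissues were the 3 genes of largest difference in each direction past the threshold (given as bounds where no array of the dim tissue measured the gene), between genotypes the 3 of smallest p where fewer passed, and other Hox genes as examples of the per-mouse patterns. The Hox genes and the lists of cofactors, cluster noncoding RNAs, ParaHox, Polycomb, limb, regional and cell type genes were chosen with earlier results of these data known. Some genes are not reported here by name, but remain in the counts and medians. The alternatives were other normalizations, filters, probes, weights, slide and left-out arrays.

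The mouse numbers in the labels pair each tissue with the others of that mouse. Deviations from group means over 17174 genes correlated by 0.0142 on average within a mouse (-0.177 to 0.232) and by -0.0065 between mice. The consensus correlation with the mouse as a replicate block was -0.00068. Slide 1 held all livers and brains A and D, slide 2 the other brains and hearts A, B, D and E, and slide 3 hearts C and F and all muscles.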

Additional observations from a re-analysis of the deposited data

Results flagged for a closer look

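For 41 combinations of Hox gene and tissue measured on all 6 arrays, the gap of the highest or lowest mouse to the nearest other was set against the range of the 6 values, and 2 gaps exceeded Dixon's limit, where chance gives about 1 in 20. Hoxc5 in muscle E stood highest, at 2.29 against -1.22 in the nearest muscle, with a gap of 0.835 of the range. Hoxb7 in muscle E stood lowest, at -1.46 against -0.93, with a gap of 0.643 of the range.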

How the results depend on the processing

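Between genotypes, the number of Hox genes past the threshold was 0 in every tissue, in the tissue mean and in the test between tissues, under each alternative and with any array or mouse left out (0 to 0). The block on the mouse (pairing) changed no count: 4 for liver against brain, 8 for liver against heart, 20 for liver against muscle, 8 for brain against heart, 23 for brain against muscle, 20 for heart against muscle and 0 between genotypes. Without the filter on dim probes, the counts were 19 of 39 for liver against brain, 20 for brain against heart, 35 for brain against muscle and 31 for heart against muscle, since probes near the floor were then also tested. With slide as a term, which compares slide 1 with slide 2 through the brains alone, liver against brain gave 1 and liver against heart 5. With normexp, brain against heart gave 5. On at least 3 of 6 arrays, 15 Hox genes were measured in liver and 19 in brain. Leaving out 1 array at a time gave 2 to 10 genes on all brains (10 without KI mouse C), 7 to 10 on all livers, 11 in heart and 24 to 25 in muscle. The same gave 3 to 6 genes for liver against brain, 7 to 8 for liver against heart, 20 to 21 for liver against muscle, 6 to 10 for brain against heart, 20 to 24 for brain against muscle and 19 to 21 for heart against muscle. Leaving out the brain and liver of mouse C and the muscle of mouse B together, an alternative chosen after the data were seen, gave 10 genes on all brains. The genotype difference of Hoxb3 in heart was -0.0871 with the mean of its probes. In brain, that of Hoxc4 was 1.18 and that of Hoxb5 1.39 with array weights, and leaving out 1 array at a time gave -2.63 to 1.52 and -2.59 to 1.48, so neither has a settled sign (0.26 and 0.56 with brain E left out, 1.52 and 1.48 with brain C left out). The causes were not tested. Quantile normalization moved the median of all genes from 0.15 to -0.10 for liver against brain and from -0.20 to 0.08 for brain against muscle. Levels near background limit the liver and brain comparisons.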
